A study of Mus musculus with 4 samples.

Results

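The small leucine-rich proteoglycans are secreted proteins of the extracellular matrix, and 10 of their genes, Fmod, Dcn, Lum, Bgn, Ogn, Omd, Prelp, Aspn, Kera and Podn, were followed here out of 18193 genes on the array. The 10 were taken by symbol, as every probe set annotated to 1 of these symbols, which gave 21 of 45101 probe sets. Fmod was picked for its late rise in these same data, so its values are a description and support nothing by themselves.

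RNA came from ST2 cells, an established fibroblast-like stromal line from the bone marrow of BALB/c mice, grown at 37 °C. The 3 LIPUS groups were exposed once to low-intensity pulsed ultrasound, a mechanical stimulus used in fracture care, for 20 min at 25 mW per square cm, and were then kept at 37 °C for 0.5, 1 or 3 h, while the control cells were kept at 37 °C. Each group was 1 Affymetrix Mouse Genome 430 2.0 array, so no value has a replicate error and no test was made. The labels do not say whether control cells were handled like the exposed cells without ultrasound, or when they were collected.

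Each member has a core protein built from leucine-rich repeats, and most carry sulfated sugar chains. They bind the surface of collagen fibrils and set how fibrils grow and pack, and several also bind TGF-beta family growth factors or signal through cell-surface receptors. In bone and marrow stroma, biglycan and decorin are known as proteoglycans of the mineralising matrix, and fibromodulin is known from tendon and cartilage.

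Values are the deposited signals, taken as log2, so that a difference of 1 is 2-fold. Signals under the median of all values, 5.23, were treated as not measurable and raised to that floor. With 1 array per group, a gene is said to pass a rule when its ratio to the control array reached 1.5-fold (0.585 on the log2 scale) or 2-fold. The spread that could be measured was that of the log2 ratio between a pair of probe sets of the same gene. The difference of each pair was divided by the square root of 2, so the spread is that of 1 probe set. Over 5004 genes its SD was 0.106 (0.5 h), 0.157 (1 h) and 0.136 (3 h), and over the 545 of them whose brighter probe set lay under log2 7 it was 0.144, 0.183 and 0.161. It holds no difference between cultures.

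The arrays were alike, with medians from 5.21 to 5.25 and a Pearson correlation with the control array from 0.996 to 0.997 across probe sets, which are not independent. Of 8 stromal markers, 7 lay above the floor, among them Col1a1, Col1a2 and Pdgfrb, and Thy1 did not. Of 24 markers of other cells with a probe set, 10 lay above the floor on all 4 arrays, namely Csf1r, Lyz2, Kdr, Fabp4, Col2a1, Col9a1, Sox9, Sp7, Scx and Mkx, and the other 14, Ptprc, Cd68, Adgre1, Pecam1, Cdh5, Tek, Adipoq, Cidec, Acan, Comp, Ibsp, Alpl, Dmp1 and Tnmd, lay under it on every array. The arrays at 1 h and 3 h also had higher signals for the 12 probe sets of spiked bacterial poly-A transcripts, whose median log2 ratios were −0.04, 0.32 and 0.37 in order of time, and the 3 probe sets of 18S ribosomal RNA had medians of 0.96, 1.91 and 1.79. The 5′ minus 3′ log2 signal of Gapdh, a sign of RNA integrity, differed from the control by −0.06, −0.16 and −0.16.

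Of the 10 genes, 6 were measurable, namely Fmod, Ogn, Omd, Prelp, Bgn and Podn, each on all 4 arrays. Fmod, Ogn and Omd had higher signals than the control at every time after LIPUS, with log2 ratios at 3 h of 1.00, 0.58 and 0.50. Podn had ratios below 0 at every time, those of Bgn lay close to 0, and the probe sets of Prelp disagreed in direction at 3 h. Dcn, Lum, Aspn and Kera lay under the floor on all 4 arrays, so no ratio is given for them. In bulk RNA, fewer cells that carry a transcript and less of it per cell cannot be told apart.

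**Figure D1:**
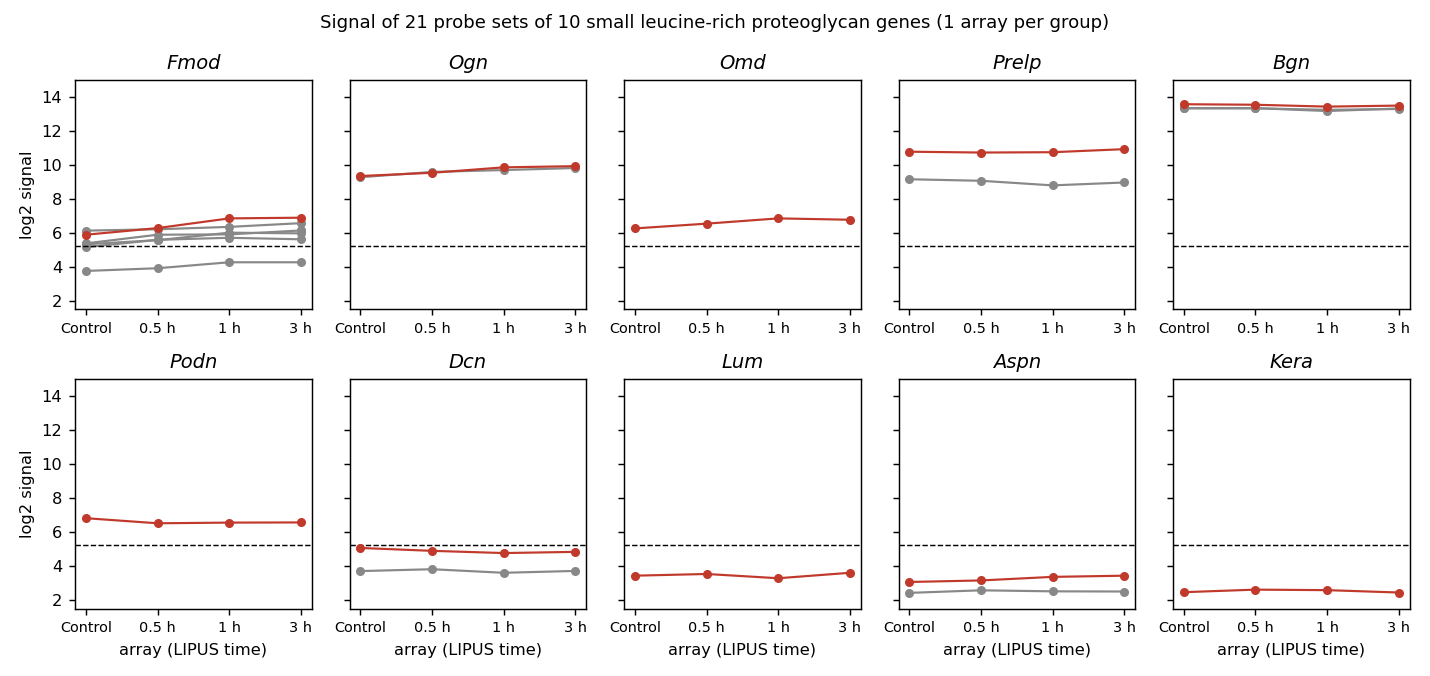
Log2 signal (vertical axis) on the control array and the 3 LIPUS arrays (horizontal axis, times not to scale) for the 21 probe sets of the 10 genes, with the brightest probe set of each gene in red, the others in grey and the floor of 5.23 as a dashed line. Each point is 1 array; the lines of Fmod, Ogn and Omd lie higher on the LIPUS arrays than on the control, and Dcn, Lum, Aspn and Kera stay under the line.

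No member passed the 2-fold rule against the control at any time. Over all genes, 0.138%, 0.191% and 0.0691% were higher by that rule at 0.5, 1 and 3 h, and 0 genes were lower at any time. By the 1.5-fold rule, 0 of 6 members were higher at 0.5 h, where 0.372% of 11574 genes were. At 1 h, 2 of 6 were higher, Fmod and Omd, where 0.948% of 11497 genes were. That count was 1 with quantile normalization, where Omd was at 0.57, 1 with the mean over probe sets, where Fmod was at 0.57, and 0 with the floor at the 75th percentile, where neither was measurable, or against the mean of the other 3 arrays. At 3 h, 1 of 6 was higher, Fmod, where 0.346% of 11574 genes were, and nothing is read from that count because Fmod was chosen on it. The same holds for the part of Fmod in the 1 h count, which leaves Omd, at 1.51-fold. No member was lower by 1.5-fold at any time, against 0.104%, 0.331% and 0.181% of genes at 0.5, 1 and 3 h. Between adjacent times, 0 of 6 members passed 1.5-fold in either direction. From 0.5 h to 1 h, 0.348% of genes were higher and 0.104% lower by that rule, and from 1 h to 3 h, 0.0174% were higher and 0.452% lower. The median log2 ratio of the 6 to the control was 0.08, 0.24 and 0.33 in order of time, where the medians of all genes were 0.01, 0.02 and 0.01. Without Fmod, which was chosen for its rise, the median of the other 5 was −0.03, −0.04 and 0.15. With the floor at the 25th percentile, where Dcn alone enters, below the control at each time, the members' median was also −0.03, −0.04 and 0.15.

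Fmod encodes fibromodulin, a keratan sulfate proteoglycan that binds collagen fibrils and takes part in their cross-linking. Its brightest probe set had log2 signals of 5.89 in control cells, 6.28 at 0.5 h, 6.85 at 1 h and 6.89 at 3 h. On this probe set the step from 0.5 h to 1 h was 0.58, just short of 1.5-fold, and that from 1 h to 3 h was 0.03. Against the control it was 1.31-fold at 0.5 h, 1.95-fold at 1 h and 1.996-fold at 3 h, the last just outside the 2-fold rule. Ranked from the highest, its ratio was number 95 of 11574 genes at 0.5 h, 25 of 11497 at 1 h and 9 of 11574 at 3 h.

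The 6 probe sets of Fmod agreed on direction and not on size. All 6 lay above the control array at each time, with log2 differences, taken without the floor, from 0.08 to 0.51 at 0.5 h, from 0.22 to 0.96 at 1 h and from 0.45 to 1.00 at 3 h. Among 856 genes with at least 5 probe sets, all probe sets were higher for 3.86%, 9.23% and 5.49% at those times. Fmod was chosen for its rise, so nothing is read from its agreement beside these shares. All 6 probe sets share 1 control array, and 1 of them lay under the floor on every array. The brightest probe set is 1 of the 5 with the suffix x_at, which marks designs with probes that can also match other transcripts. The 1 Fmod probe set without that suffix had signals of 6.13, 6.21, 6.35 and 6.57 in control cells and at 0.5, 1 and 3 h, higher at each later time and 1.36-fold the control at 3 h, with steps of 0.14 from 0.5 h to 1 h and 0.23 from 1 h to 3 h. A further x_at probe set reached 1.69-fold at 3 h, with steps of 0.02 and 0.22, and another 1.55-fold, with steps of 0.44 and −0.04, so the probe sets also disagree on timing. The mean over the 5 probe sets that lay above the floor on at least 1 array gave log2 ratios of 0.57 at 1 h, just short of 1.5-fold, and 0.65 at 3 h, past it.

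**Figure D2:**
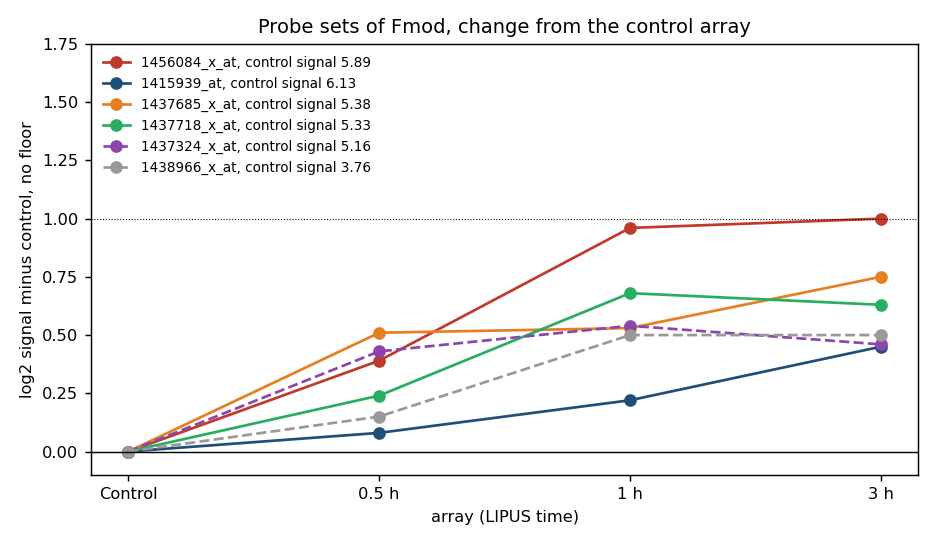
Log2 signal minus that of the control array (vertical axis, no floor) for the 6 probe sets of Fmod on the control array and at 0.5, 1 and 3 h (horizontal axis, times not to scale), with dashed lines for probe sets under the floor on at least 1 array. Each point is 1 array, and the dotted line marks 2-fold; at 3 h the probe sets span 0.45 to 1.00.

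Ogn encodes osteoglycin, also called mimecan, a member that was first isolated from bone. Its brighter probe set had log2 signals of 9.34 in control cells, 9.53 at 0.5 h, 9.85 at 1 h and 9.92 at 3 h. Its other probe set had 9.27, 9.58, 9.69 and 9.81 in the same order. Both probe sets were lowest in the control and highest at 3 h, and their ratios there were 1.498-fold, just outside the 1.5-fold rule, and 1.46-fold. The 2 probe sets carry no suffix for shared probes, and their log2 ratios at 3 h, 0.58 and 0.54, differed by less than the spread between probe sets.

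Omd encodes osteomodulin, also called osteoadherin, a keratan sulfate proteoglycan of mineralised tissue. Its 1 probe set had log2 signals of 6.26 in control cells, 6.54 at 0.5 h, 6.85 at 1 h and 6.77 at 3 h. The ratio was 1.22-fold at 0.5 h, 1.51-fold at 1 h, just inside the rule, and 1.42-fold at 3 h. It was highest at 1 h, and its step of −0.09 from there to 3 h was smaller than the spread between probe sets. At 0.5, 1 and 3 h, 2.07%, 0.896% and 0.622% of genes had a ratio as high as that of Omd. For Ogn these shares were 7.06%, 1.33% and 0.372%.

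The poly-A spikes, the 18S probe sets and the Gapdh 5′ minus 3′ signal differed from the control on the same 1 h and 3 h arrays, by the values given above, and their part in the ratios of Fmod, Ogn and Omd was not tested. At 0.5 h the spikes lay at −0.04, with 4 of 12 above the control, and 18S at 0.96, and the log2 ratios of Fmod, Ogn and Omd were 0.39, 0.19 and 0.28. Among markers of other cells, Fabp4, an adipocyte lipid carrier, had log2 ratios of 0.32, 0.30 and 0.33, Lyz2, a macrophage lysozyme, 0.30, 0.38 and 0.47, and Csf1r, a macrophage growth factor receptor, 0.00, −0.06 and −0.07. Of the macrophage list 2 of 5 members were measurable, and its summed linear signal was 236 in control cells, 258 at 0.5 h, 260 at 1 h and 271 at 3 h, with Ptprc, Cd68 and Adgre1 under the floor. Of the adipocyte list, 1 of 3 members with a probe set was measurable, and the sum was 1031, 1284, 1270 and 1297, with Adipoq and Cidec under the floor. In the same order, the endothelial sums were 96, 105, 88 and 93 and the chondrocyte sums 232, 229, 222 and 233. The osteoblast sums were 86, 88, 85 and 83, and the tenocyte sums 158, 155, 164 and 150. The part of these markers in the result was not tested.

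Omd and Ogn are immediate neighbours on chromosome 13 in RefSeq's annotation of GRCm38.p6, and Prelp and Fmod are neighbours on chromosome 1. In all, 8 of the 10 genes lie next to another gene of the wider family, and Podn and Bgn do not. The pair on chromosome 13 had like courses, with log2 ratios at 0.5, 1 and 3 h of 0.28, 0.59 and 0.50 for Omd and 0.19, 0.52 and 0.58 for Ogn. Aspn, on the other side of Omd, lay under the floor, and Nol8, the next coding gene after Ogn, was at 0.01, 0.23 and −0.05. The pair on chromosome 1 differed, with Prelp at −0.05, −0.04 and 0.15 by its brighter probe set and Fmod at 0.39, 0.96 and 1.00. Btg2, an early response gene on the other side of Fmod, was at 0.67, 0.89 and −0.05 by its brighter probe set and at 0.25, 0.41 and −0.29 by its other one, so both lay above the control at 1 h and neither did at 3 h.

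The start regions of the 3 genes with higher signals are shown because their signals were above the control at every time. Each is 300 bases of RefSeq sequence on GRCm38.p6, from 250 bases before to 50 after the annotated start, 5′ to 3′, and all 3 lie on the + strand: Fmod at chr1:134037004-134037303, Ogn at chr13:49607765-49608064 and Omd at chr13:49582212-49582511. Capitals mark the longest runs of at least 10 bases that a pair of these 3 windows shares on the same strand.
Fmod: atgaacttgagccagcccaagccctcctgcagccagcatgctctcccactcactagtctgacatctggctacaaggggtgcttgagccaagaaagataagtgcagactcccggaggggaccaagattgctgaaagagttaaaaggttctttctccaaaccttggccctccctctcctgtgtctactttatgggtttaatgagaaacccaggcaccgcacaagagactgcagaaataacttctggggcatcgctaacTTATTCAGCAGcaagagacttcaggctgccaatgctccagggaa
Ogn: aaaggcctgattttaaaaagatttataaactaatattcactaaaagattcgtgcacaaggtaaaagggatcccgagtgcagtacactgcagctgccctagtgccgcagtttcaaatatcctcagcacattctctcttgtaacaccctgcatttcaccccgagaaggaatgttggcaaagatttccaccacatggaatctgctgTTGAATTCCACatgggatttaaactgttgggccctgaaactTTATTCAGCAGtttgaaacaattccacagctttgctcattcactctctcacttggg
Omd: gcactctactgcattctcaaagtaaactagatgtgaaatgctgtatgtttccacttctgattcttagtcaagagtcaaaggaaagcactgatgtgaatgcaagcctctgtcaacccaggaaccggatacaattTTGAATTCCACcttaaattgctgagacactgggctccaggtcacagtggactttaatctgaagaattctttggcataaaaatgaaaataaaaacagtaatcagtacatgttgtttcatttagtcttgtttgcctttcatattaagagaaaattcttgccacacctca

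Fmod and Ogn share the 11 bases TTATTCAGCAG, which begin 6 bases after the start in Fmod and 6 bases before it in Ogn, and 6 of 32851 windows in the table hold that run (0.0183%). Ogn and Omd share the 11 bases TTGAATTCCAC, 47 bases before the start in Ogn and 117 before it in Omd, which 4 windows hold (0.0122%). Fmod and Omd share no run over 8 bases. Runs of this length were also found between members with unlike courses: over all 28 pairs of the 8 members with a window, the median longest run was 9 bases, 9 pairs shared at least 10, and the longest, of 13 bases, was between Fmod and Podn. Dcn and Lum had no window. The other 8 members had 9 windows, and only the first listed for each member was compared and searched. Several motifs were searched on both strands, each of which can overlap another. The AP-1 motif TGANTCA, held by 7.81% of windows, and the E-box CACGTG of the clock factors, held by 7.15%, were in none of the 8 member windows. The TEAD motif GGAATG, held by 14.7%, was in that of Ogn. The pair of heat shock half-sites GAANNTTC, held by 7.86%, was in that of Omd, 29 bases after the start. TATAAA, held by 13.6%, was in those of Ogn and Aspn, far upstream of the start in each.

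Bgn encodes biglycan, a chondroitin or dermatan sulfate proteoglycan and the close relative of decorin. Its brightest probe set had log2 signals of 13.56 in control cells, 13.53 at 0.5 h, 13.42 at 1 h and 13.48 at 3 h. Its 3 probe sets had log2 ratios at 0.5 h of −0.03, −0.00 and 0.01, at 1 h of −0.13, −0.09 and −0.16, and at 3 h of −0.08, −0.04 and −0.02, so they were near the control throughout. The signals lie close to the top of the array's range, 14.5.

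Prelp encodes a basic heparin-binding member that links collagen to basement membrane. Its brighter probe set had log2 signals of 10.77, 10.72, 10.74 and 10.92 in control cells and at 0.5, 1 and 3 h. Its other probe set had 9.15, 9.06, 8.79 and 8.96 in that order. The log2 ratios at 3 h were 0.15 and −0.18, so no direction can be given for Prelp. The brighter probe set has the suffix s_at, which marks probes shared by several transcripts.

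Podn encodes podocan, a member that binds collagen and is known from smooth muscle and kidney. Its 1 probe set had log2 signals of 6.82 in control cells, 6.52 at 0.5 h, 6.56 at 1 h and 6.57 at 3 h. All 3 LIPUS arrays lay close together and under the control, with ratios of 0.808, 0.835 and 0.840. Since every ratio uses the same control array, the like values at the 3 times are not independent of each other. At 0.5 h, 1.44% of genes had a ratio as low as that of Podn, at 1 h 7.65% and at 3 h 6.12%.

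The other 4 genes gave no measurable signal. Dcn encodes decorin, the founding member, and its 2 probe sets ran from 3.61 to 5.07, the highest value being that of the control and just under the floor. Lum encodes lumican, a keratan sulfate relative of fibromodulin, and ran from 3.29 to 3.61. Aspn encodes asporin, which can bind TGF-beta, and its 2 probe sets ran from 2.43 to 3.44. Kera encodes keratocan, known from the cornea, and ran from 2.45 to 2.62.

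**Figure D3:**
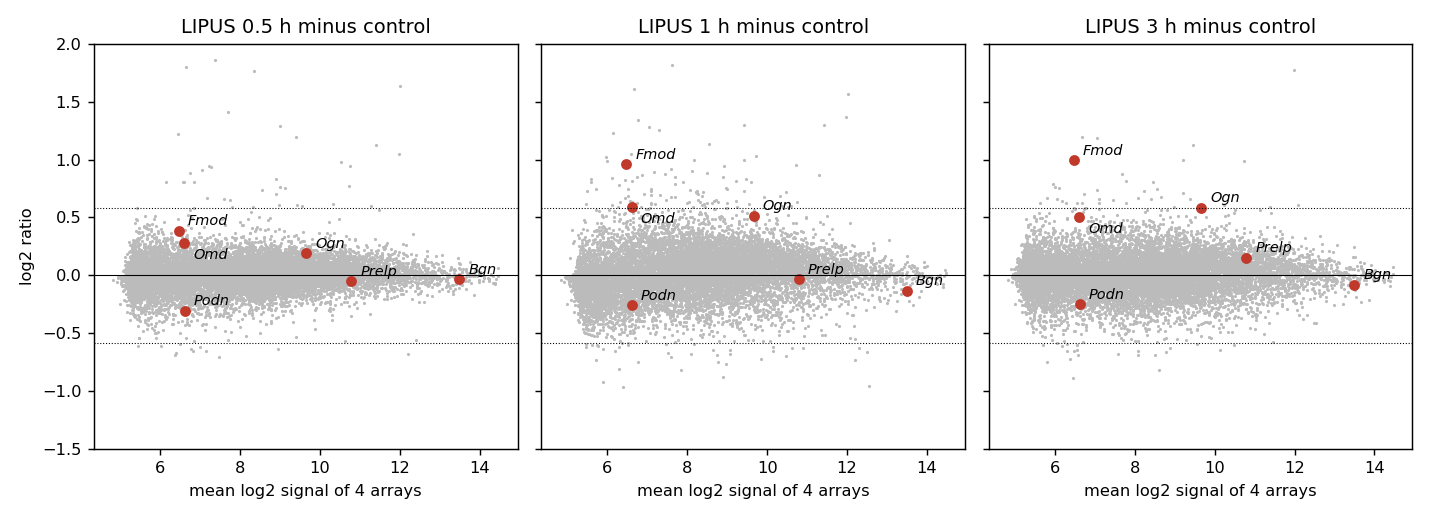
Log2 ratio to the control array (vertical axis) against the mean log2 signal of 4 arrays (horizontal axis) at 0.5, 1 and 3 h, with each gene as a grey point, the 6 measurable members in red and dotted lines at 1.5-fold; 6, 7 and 3 genes lie above the top of the 3 panels in that order. At 3 h Fmod lies at 1.00, Ogn at 0.58, Omd at 0.50, Prelp at 0.15, Bgn at −0.08 and Podn at −0.25.

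By the root mean square distance over the 3 log2 ratios, the genes most like Fmod, out of 11013 others above the floor on all 4 arrays, were Ptx3, at a distance of 0.088, and Slc5a3, at 0.113. Ptx3, which encodes a secreted pentraxin of the matrix, had log2 ratios of 0.34, 0.82 and 1.00 at 0.5, 1 and 3 h. Slc5a3, a myo-inositol transporter gene, had 0.32, 0.83 and 1.12, but 0.02, 0.23 and 0.53 by its other measurable probe set. The next 8 were Banp, Abi3bp, Cryab, Clec2d, Ptbp2, C130075A20Rik, Arntl and Gata3, at distances from 0.141 to 0.261. Abi3bp, which encodes a secreted matrix protein, was at 0.29, 0.73 and 0.73, and its other probe set at 0.23, 0.63 and 0.54. Within the family, Omd was number 36 and Ogn number 39 in that order, Prelp number 4719, Bgn number 8528 and Podn number 10596. All these ratios share 1 control array. The distances were taken from the brightest probe set of Fmod alone. Its probe set without the x_at suffix had log2 ratios of 0.08, 0.22 and 0.45, so the order rests on 1 probe set.

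Companion lists give the values of other genes of the pathway, and in them 1 gene passed the 1.5-fold rule. It was Xylt2, a xylosyltransferase that begins the sugar chain on the core protein, with log2 signals of 6.55 in control cells, 6.45 at 0.5 h, 6.22 at 1 h and 5.95 at 3 h. The signal was lower at each later time, to 0.661-fold at 3 h by its 1 probe set, a log2 ratio of −0.60, just inside the rule. Its signals lay near the floor on all 4 arrays, where values are the least certain. Xylt2 no longer counted once the floor was raised to the 75th percentile, or once the other 3 arrays replaced the control. Xylt1, also on the list, had no probe set. Of 21 measured genes for chondroitin and dermatan sulfate chains, 0 were higher and 1 was lower by 1.5-fold at 3 h, against 0.346% and 0.181% of all genes, with a list median of −0.04. Csgalnact2, which starts chondroitin chains, had the highest ratio there, 0.28.

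By the 1.5-fold rule, 0.372%, 0.948% and 0.346% of all genes were higher at 0.5, 1 and 3 h, and 0.104%, 0.331% and 0.181% lower. Counts of 0 in the lists that follow are near those shares. Of 8 measured genes for keratan sulfate chains and tyrosine sulfation, 0 passed the rule at any time, with medians of 0.03, −0.01 and −0.01 at 0.5, 1 and 3 h. The highest at 3 h was B4galt1, a galactosyltransferase, at 0.17, and the lowest was Tpst2, which sulfates tyrosines, at −0.32. Of 10 measured proteases and helpers that process or cut such proteins, 0 passed the rule, and the median at 3 h was 0.06. Adamts5, a protease that cuts large proteoglycans, had log2 signals of 10.91, 10.90, 11.31 and 11.47 in control cells and at 0.5, 1 and 3 h, a ratio of 1.48-fold at 3 h, just outside the rule. Its other measurable probe sets had log2 ratios of 0.60 and 0.23 at 3 h, the first of them past 1.5-fold. The lowest of that list was Adamts9, at −0.13.

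At 3 h, 0.346% of all genes were higher and 0.181% lower by the 1.5-fold rule, and the counts of 0 below are near those shares. Of 14 measured collagen and cross-linking genes, 0 passed the rule, with a median of 0.03 at 3 h. Col12a1, a fibril-associated collagen, was the highest at 0.27, while its other measurable probe set was at 0.03, and Loxl3, a lysyl oxidase, was the lowest at −0.23. Of 15 measured ligands and receptors that the family binds, 0 passed the rule, with a median of 0.01 at 3 h. Tlr2, a receptor that biglycan can engage, was the highest at 0.39, and Tgfb1, a growth factor that several members bind, was the lowest at −0.30, after −0.20 at 0.5 h and −0.39 at 1 h. Of 14 measured other proteoglycans, 0 passed the rule, with a median of 0.03 at 3 h, from Sdc3, a syndecan, at −0.23 to Agrn, which encodes agrin, at 0.32. Of 9 further small leucine-rich proteoglycan genes, 7 had a probe set and 2 lay above the floor on any array, Chadl on all 4 with a ratio of 0.16 at 3 h, and Optc on the 3 h array alone.

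**Figure D4:**
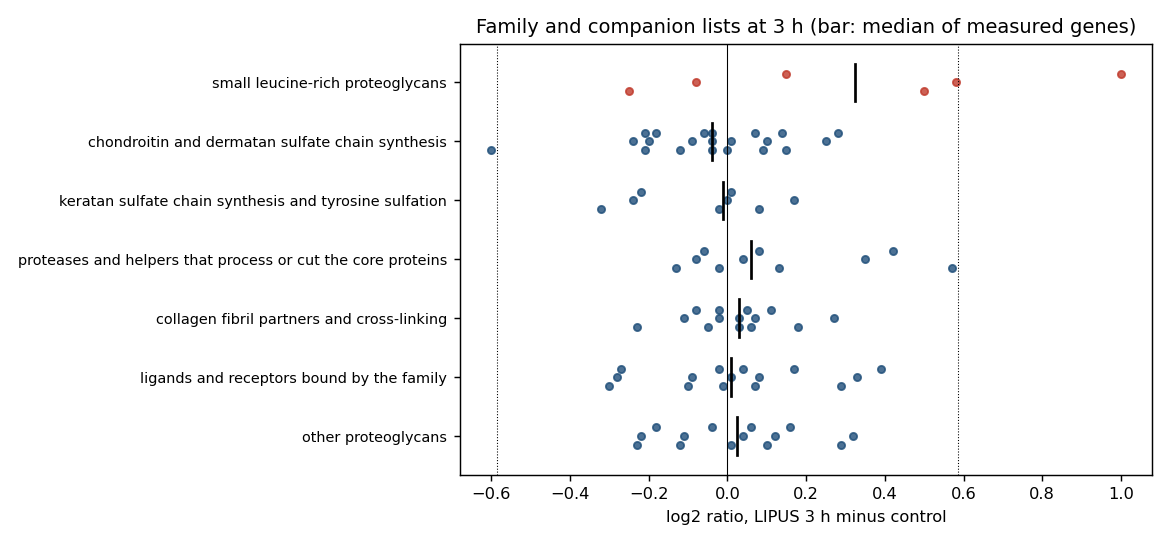
Log2 ratio at 3 h to the control array (horizontal axis) for each measured gene, with 1 row of points per list (vertical axis), the family in red, companion lists in blue, the median of each list as a black bar and dotted lines at 1.5-fold. Fmod lies at 1.00, Xylt2 at −0.60, and the medians of the 6 companion lists drawn, each with at least 8 measured genes, lie between −0.04 and 0.06; the list of other small leucine-rich repeat proteoglycans, with 2 measured genes and a median of 0.11, is not drawn.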

How the data were processed

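The deposited table gives 1 signal for each probe set on each array, and these were taken to be log2 values scaled before deposit. Neither the log base nor the method of summarising and scaling is stated in the labels, and the base was inferred from the range, 1.53 to 14.5. Per the labels' protocols, 500 ng of total RNA went into a 3′ IVT kit, so signals come mostly from the 3′ end of transcripts.

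Of 45101 probe sets, 64 were controls, 34958 had 1 gene symbol in the platform annotation and 932 several. For 34754 of those with 1 symbol, the symbol was taken from RefSeq by Entrez number, whether or not it changed. Each gene was represented by its probe set with the highest mean signal. Ratios are each LIPUS array minus the control array, with no test because each group had 1 array, and the number of arrays limits the precision. A ratio needed 1 of its 2 arrays above the floor.

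The members, the 7 companion lists and the marker lists were chosen with earlier results of these data known. Named companions are those past 1.5-fold at any time and the highest and lowest at 3 h; Nol8, Btg2, Aspn beside Omd and the cell markers were named outside that rule, after their values were seen. Promoter windows are RefSeq's. Alternatives covered the floor, the scaling, the probe sets, the reference array and, added after the data were seen, the median without Fmod. Python 3.11.15, numpy 2.4.6, pandas 2.3.3, matplotlib 3.10.9, R 4.3.3 and limma 3.58.1 were used.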

Additional observations from a re-analysis of the deposited data

How the results depend on the processing

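With 1 array per group, no alternative adds replicate error, and signals near the floor, as of Fmod, Omd and Podn, are the least certain. No paired analysis was possible because each group has 1 array. Over 8 alternatives, the member ratios past 1.5-fold, of Fmod at 1 h and 3 h and Omd at 1 h, kept their sign where measurable. Smaller ratios did not all keep it. Against the mean of the other 3 arrays at 0.5 h, Ogn went from 0.19 to −0.18 and Omd from 0.28 to −0.08. Over all alternatives, 22 of 141 main values and 14 of 402 others moved beyond the spread between probe sets or changed a count. With the control array kept as reference, the log2 ratio at 3 h stayed from 0.65 to 1.01 for Fmod, 0.56 to 0.58 for Ogn and 0.49 to 0.52 for Omd where they were measurable; with the floor at the 75th percentile, Fmod, Omd and Podn were not.

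With the mean over probe sets, Fmod was at 0.57 at 1 h and 0.65 at 3 h, and 1 member, Omd (not 2), was past 1.5-fold at 1 h; the other probe sets of Fmod gave smaller ratios. Against the mean of the other 3 arrays, Fmod was at −0.27, 0.50 and 0.55 at 0.5, 1 and 3 h, the members' median was −0.11 at 0.5 h, and 0 members passed 1.5-fold at 1 h or 3 h, since that reference holds other LIPUS arrays. With the floor at the 75th percentile, 0 members passed 1.5-fold at 1 h or 3 h, with 3 members left, and the medians were −0.03, −0.04 and 0.15. With the floor at the 25th percentile, where Dcn enters, the medians were −0.03, −0.04 and 0.15. With no floor they were 0.04 at 1 h and 0.16 at 3 h, since Dcn, Lum, Aspn and Kera then enter. Quantile normalization left 1 member past 1.5-fold at 1 h, and with it or cyclic loess 1 member, Fmod, was past 2-fold at 3 h, by a margin of at most 0.01. Chosen after seeing the data, the median of the members other than Fmod was −0.03, −0.04 and 0.15 at 0.5, 1 and 3 h.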
